A study of Homo sapiens with 12 samples.

Results

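The 10 genes described here encode chemokines and inflammatory cytokines: CCL2, CCL20, CXCL1, CXCL2, CXCL3, CXCL8, IL6, LIF, IL1A and IL1B. They were chosen by name, as the genes whose probes carry an accession that RefSeq gives to these symbols, and are 10 of the 27708 genes on the array. They were measured in Daoy, an established human medulloblastoma (MB) line, grown in astrocyte conditioned medium (ACM) or full control medium (DMEM), and harvested after 1 passage (P1) or 3 passages (P3), a passage lasting 48 h. ACM was the supernatant of cultured hippocampal astrocytes of neonatal Sprague Dawley rats, so its proteins are of rat origin, and both media held fetal bovine serum. Each of the 4 groups had 3 replicates, which the labels call independent experiments, and the 12 RNA samples were hybridised to 12 single-colour Agilent arrays. No gene was deleted or overexpressed. Daoy is 1 line, which limits how far the values stand for MB cells in general. The question was how gene expression in MB cells differs after culture in medium from astrocytes.

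Chemokines are small secreted proteins that bind receptors on leukocytes and other cells and direct their migration. CXCL1, CXCL2, CXCL3 and CXCL8 act mainly through CXCR2 and draw neutrophils, CCL2 acts through CCR2 on monocytes, and CCL20 through CCR6 on lymphocytes and dendritic cells. IL-6 and LIF signal through receptors that share the gp130 chain and act on STAT3, and IL-1 alpha and IL-1 beta bind IL-1 receptor type 1 and activate NF-kB, which in turn induces most of the genes named here. Reactive astrocytes and many tumor cells are known to make these factors.

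The promoters of the chemokines show what the genes share in sequence. RefSeq (GRCh38.p14) gave a promoter for 8 of the 10 genes, and CCL2 and LIF had no entry. Each promoter was searched over the 250 bases before the start, on both strands, for 3 motifs: the NF-kB consensus, the κB-type element GGAATTTCC, which can overlap it, and the AP-1 element TGANTCA. The element GGAATTTCC was found in CXCL1, CXCL2, CXCL3 and CXCL8, which is 4 of 8 genes against 0.413% of 35116 promoters. The consensus was found in CXCL1, CXCL2, CXCL3, CCL20 and IL6, 5 of 8 genes against 5.21% of all promoters, and TGANTCA in CXCL8 and IL1A, 2 of 8 genes against 6.57%. A match is a description of the letters and not of binding, and IL1B held no match (0) to the 3 motifs in this window. The 150 bases before the start of the 6 genes with a κB match are shown, 5′ to 3′ on the strand of the gene, with the κB match in capitals and overlapping matches joined. The windows are chr4:73869243-73869392 (plus strand) for CXCL1, chr4:74099196-74099345 (minus) for CXCL2, chr4:74038690-74038839 (minus) for CXCL3, chr4:73740419-73740568 (plus) for CXCL8, chr2:227813692-227813841 (plus) for CCL20 and chr7:22727050-22727199 (plus) for IL6.
CXCL1: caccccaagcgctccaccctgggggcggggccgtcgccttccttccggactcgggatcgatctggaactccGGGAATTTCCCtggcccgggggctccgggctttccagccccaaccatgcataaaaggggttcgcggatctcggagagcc
CXCL2: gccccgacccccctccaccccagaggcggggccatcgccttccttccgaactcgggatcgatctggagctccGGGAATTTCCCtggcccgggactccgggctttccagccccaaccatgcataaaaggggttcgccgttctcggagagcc
CXCL3: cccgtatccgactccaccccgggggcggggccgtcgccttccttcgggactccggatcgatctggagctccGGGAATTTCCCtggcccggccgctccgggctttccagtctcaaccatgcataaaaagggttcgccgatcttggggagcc
CXCL8: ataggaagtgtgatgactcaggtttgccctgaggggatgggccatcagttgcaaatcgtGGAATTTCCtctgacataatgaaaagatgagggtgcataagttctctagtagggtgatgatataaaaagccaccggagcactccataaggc
CCL20: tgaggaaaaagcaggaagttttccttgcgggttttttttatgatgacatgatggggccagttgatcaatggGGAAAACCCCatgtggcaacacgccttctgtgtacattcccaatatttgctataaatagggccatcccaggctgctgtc
IL6: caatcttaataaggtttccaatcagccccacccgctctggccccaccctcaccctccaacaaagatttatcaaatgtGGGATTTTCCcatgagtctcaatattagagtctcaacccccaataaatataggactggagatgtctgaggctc
The first 3 windows are alike over most of their length, with the same capitals at nearly the same distance from the start.

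Levels are log2 intensities from which the 75th percentile of each array was subtracted, so that a difference of 1 is 2-fold. The 10 genes were measured by 13 probes, and each gene is described by its brightest probe. All 13 probes were well above background on all 12 arrays. CXCL1, CXCL2 and CXCL3 are near-identical paralogs, and because the probe sequences were not used here, signal from one paralog on the probe of another cannot be told apart. The 12 arrays came from 3 slides. All of P1 ACM was on slide 1 together with replicate 1 of P3 ACM, all of P3 DMEM was on slide 3 together with replicate 3 of P1 DMEM, and the other 4 arrays (P3 ACM 2 and 3, P1 DMEM 1 and 2) made up slide 2. Within a passage, slide and medium therefore cannot be told apart. Slide 2 had fewer probes well above background (74.2% to 80.2%) than slide 1 (90.9% to 94.6%) and slide 3 (88.1% to 91.0%). In addition, a table of log2 values deposited with the arrays conflicts with the scanner output for all 12 samples: each of its columns ranks the probes as the array of another sample does. The scanner labels were followed here, and the differences under the labels of the table are given beside each gene. Of 14 lineage markers for this tumor, 10 were well above background on all 12 arrays, ZIC1 and PTCH1 on 11, NEUROD1 on 3 and ATOH1 on 2. Of the 27708 genes on the array, 20114 had a probe well above background on all 12 arrays, a similar share. Some of the 10 markers were dim, such as OTX2 (median level -4.33) and EOMES (-4.38).

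The main feature of these genes was their spread between replicates of the same group, which for most of them was among the largest on the array. Over the 20093 genes well above background on all 12 arrays, the residual standard deviation (SD) between replicates had a median of 0.28 and a 95th percentile of 0.65 on the log2 scale. CXCL8 had a residual SD of 2.27, and the 2 genes with a larger one were the ribosomal RNA genes RNA28SN5 (2.88) and RNA18SN5 (2.40). IL1B followed at 2.17, with CSF2, a cytokine gene chosen after its values were seen, between them at 2.22. IL1A had 1.82, IL6 1.65, CXCL1 1.49, CXCL2 1.49, CXCL3 1.22 and LIF 0.99. For each of these 6 genes the number of genes with a larger residual SD was 6, 12, 24, 25, 78 and 186, respectively. CCL2 at 0.76 was still past the 95th percentile, and CCL20 at 0.58 was not. The 4 probes spotted 10 times on each array (CCL2, IL6, IL1A and IL1B) had an SD between spots of at most 0.26, so that the arrays differed by more than the spots of an array did.

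**Figure D1:**
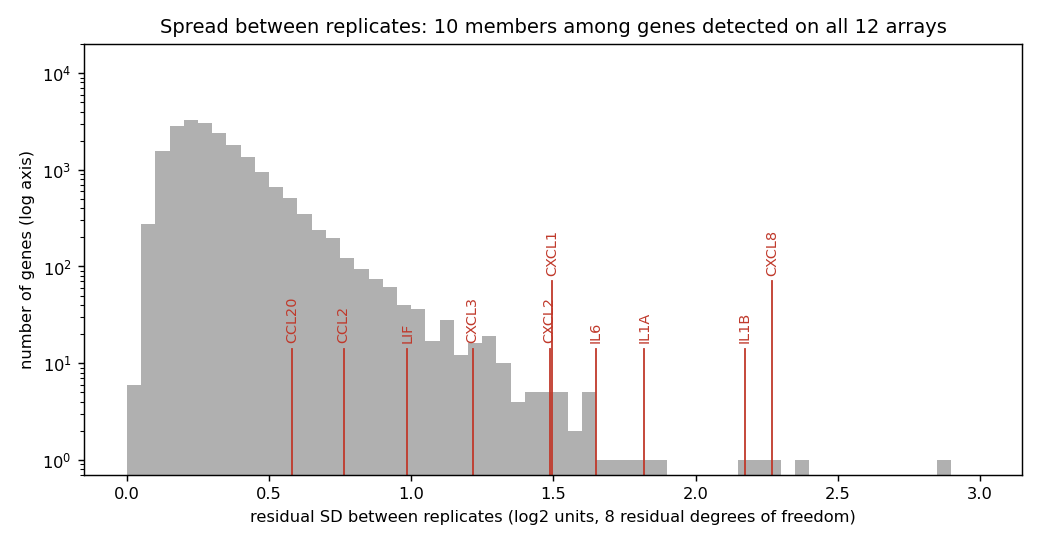
Histogram of the residual SD between replicates (log2 units) over 20093 genes well above background on all 12 arrays, with the number of genes on a log axis and the 10 chemokine and cytokine genes as labelled lines. CXCL8 at 2.27 and IL1B at 2.17 lie at the far right, whereas CCL20 at 0.58 lies below the 95th percentile of 0.65.

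The spread had the same form in all 10 genes. Replicate 3 was the lowest of the 3 ACM arrays for 10 of 10 genes at P1 and again for 10 of 10 at P3, and replicate 3 was the highest of the 3 DMEM arrays for 10 of 10 genes at P1 and for 10 of 10 at P3. The median deviation of the 10 genes from the group mean was -1.43 in P1 ACM replicate 3 and -1.85 in P3 ACM replicate 3, against 1.00 in P1 DMEM replicate 3 and 1.34 in P3 DMEM replicate 3. Both media thus had opposite deviations in replicates of the same number, while the 2 passages of a medium deviated alike. Over 25186 genes, the deviations of ACM replicate 3 correlated by 0.52 between P1 and P3 and those of DMEM replicate 3 by 0.47, against 0.10 and 0.12 for ACM replicates 1 and 2 and 0.36 and -0.03 for DMEM replicates 1 and 2. These correlations run across genes, which are not independent replicates, so they are given as descriptions. Under the labels of the table of the authors, replicate 1 was the lowest DMEM column for 10 of 10 genes at both passages, and replicate 3 the lowest ACM column for 8 of 10 genes at P1 and 9 of 10 at P3. The 10 genes rose and fell together from array to array, so the counts of 10 are not of independent genes. The share of all genes with the same order of replicates is not given here. What sets these replicates apart was not tested.

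**Figure D2:**
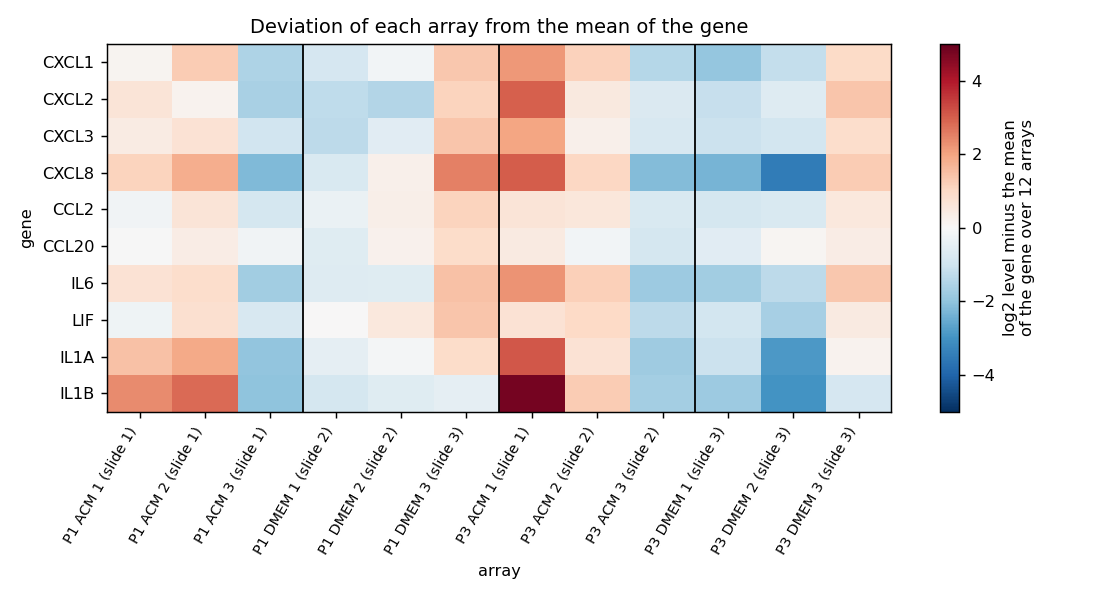
Deviation of the log2 level of each gene (rows) on each array (columns, with the slide in parentheses) from the mean of that gene over 12 arrays, red for higher and blue for lower. ACM replicate 3 is the lowest of its group and DMEM replicate 3 the highest of its group in all 10 rows at both passages.

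Among the chemokines that act on CXCR2, CXCL8 had the widest range. CXCL8 had levels of 1.38, 2.06 and -1.95 in replicates 1 to 3 of P1 ACM, -0.52, 0.51 and 2.78 in P1 DMEM, 3.27, 1.32 and -1.92 in P3 ACM, and -2.07, -3.25 and 1.55 in P3 DMEM. The lowest and highest arrays were both from P3, with a range of 6.53 on the log2 scale (92.1-fold), and the groups overlapped at both passages. The difference between ACM and DMEM was -0.43 at P1 (95% interval -3.94 to 3.09, limma adjusted p = 0.928) and 2.15 at P3 (-1.37 to 5.66, limma adjusted p = 0.76). Neither difference exceeded the spread between replicates. Under the labels of the table of the authors the differences were -2.01 at P1 and -0.56 at P3.

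CXCL1, first described as a growth-regulated oncogene of melanoma cells, had levels of 0.13, 1.24 and -1.58 in P1 ACM, -0.87, -0.18 and 1.31 in P1 DMEM, 2.16, 1.12 and -1.44 in P3 ACM, and -1.95, -1.22 and 0.95 in P3 DMEM. The arrays of the 2 media were interleaved at P1, and at P3 the first 2 ACM arrays lay above all DMEM arrays while the third lay between them. CXCL2 had levels of -0.86, -1.30 and -3.10 in P1 ACM, -2.74, -2.94 and -0.38 in P1 DMEM, 1.504, -1.002 and -2.21 in P3 ACM, and -2.63, -2.14 and -0.09 in P3 DMEM. Here the highest DMEM arrays, both replicate 3, lay above all ACM arrays of the same passage except P3 ACM replicate 1. CXCL3 ranged from -5.16 to -1.88 over the 12 arrays, with the lowest value in P1 DMEM replicate 1 and the highest in P3 ACM replicate 1. At P1 the differences between ACM and DMEM were -0.16 for CXCL1, 0.27 for CXCL2 and 0.20 for CXCL3, and at P3 they were 1.35 (95% interval -0.97 to 3.68), 1.05 (-1.26 to 3.36) and 0.86 (-1.03 to 2.76), all within the spread between replicates. The second probes of CXCL1 and CXCL2 gave 0.59 and 0.69 at P3 and 0.28 and 0.05 at P1, so that the sign at P1 for CXCL1 depended on the probe. Under the labels of the table the differences at P1 were -1.36 for CXCL1, -2.08 for CXCL2 and -1.37 for CXCL3, and at P3 0.40, 0.88 and 0.55.

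The CC chemokines varied less. CCL2, a monocyte attractant, had levels of 4.49, 5.32 and 3.80 in P1 ACM, 4.35, 4.98 and 5.81 in P1 DMEM, 5.33, 5.24 and 3.94 in P3 ACM, and 3.80, 3.94 and 5.22 in P3 DMEM. Its whole range was 2.01 (4.03-fold), and ACM and DMEM overlapped at both passages. The difference of CCL2 was -0.51 at P1 (95% interval -1.72 to 0.70, limma adjusted p = 0.683) and 0.52 at P3 (-0.69 to 1.72, limma adjusted p = 0.818), and the mean of both passages was 0.00 (-0.85 to 0.86). CCL2 differed by -0.51 and 0.0047 under the labels of the table. CCL20 ranged from -5.38 in P3 ACM replicate 3 to -3.58 in P1 DMEM replicate 3, with differences of -0.13 at P1 and -0.17 at P3. Its difference at P1 was -0.80 after quantile normalization and -0.51 after normexp with it, both with an unadjusted limma p under 0.05 but less than 2-fold, and under the labels of the table it was -0.28 at P1 and 0.74 at P3. The intervals of CCL20, -1.07 to 0.80 at P1 and -1.11 to 0.76 at P3, were the narrowest of the 10 genes at each passage, and its probe lay as little as 0.44 above the lowest signal called above background.

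Of the 2 cytokines that signal through gp130, IL6 had levels of 1.80, 1.97 and -0.67 in P1 ACM, 0.45, 0.50 and 2.57 in P1 DMEM, 3.33, 2.27 and -0.75 in P3 ACM, and -0.65, -0.22 and 2.41 in P3 DMEM. In both media the third replicate stood apart from the first 2, below them in ACM and above them in DMEM. The difference between ACM and DMEM was -0.14 at P1 (95% interval -2.70 to 2.42) and 1.103 at P3 (-1.46 to 3.66), and under the labels of the table -1.73 and 0.42. LIF, which keeps stem cells of several kinds undifferentiated, had levels of 0.67, 1.66 and 0.07 in P1 ACM, 0.90, 1.39 and 2.27 in P1 DMEM, 1.61, 1.85 and -0.44 in P3 ACM, and -0.04, -0.80 and 1.34 in P3 DMEM. The difference was -0.72 at P1 (-2.27 to 0.83) and 0.84 at P3 (-0.71 to 2.39), with overlap at both. The dimmer second probe of LIF gave 0.50 and 0.54, so the 2 probes disagreed in sign at P1, and the second lay as little as 0.47 above the lowest signal called above background. By the table labels LIF differed by -0.71 at P1 and -0.020 at P3.

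The interleukin-1 genes had the largest differences when both passages were averaged. IL1A, whose product is active as a precursor in the cell and on its surface, had levels of -0.44, -0.01 and -3.87 in P1 ACM, -2.32, -1.97 and -0.98 in P1 DMEM, 1.21, -1.15 and -3.66 in P3 ACM, and -2.96, -4.77 and -1.73 in P3 DMEM. At both passages ACM replicates 1 and 2 lay above all DMEM arrays and ACM replicate 3 did not. The difference was 0.32 at P1 (95% interval -2.50 to 3.14) and 1.95 at P3 (-0.87 to 4.78, limma adjusted p = 0.74), and under the labels of the table -1.68 and -0.90. IL1B, whose product is released after cleavage by caspase-1, had levels of 1.06, 1.52 and -3.33 in P1 ACM, -2.21, -1.92 and -1.76 in P1 DMEM, 3.45, -0.06 and -3.02 in P3 ACM, and -3.15, -4.31 and -2.15 in P3 DMEM. Its range over the 12 arrays was 7.77 (218-fold), the widest of the 10 genes, and again ACM replicates 1 and 2 lay above all DMEM arrays of the same passage. IL1B was 1.71 higher in ACM at P1 (-1.66 to 5.08, limma adjusted p = 0.598) and 3.33 at P3 (-0.04 to 6.70, limma adjusted p = 0.702), with exact permutation p = 0.4 and p = 0.2 (two-sided), where 3 arrays against 3 cannot go below 0.1.

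**Figure D3:**
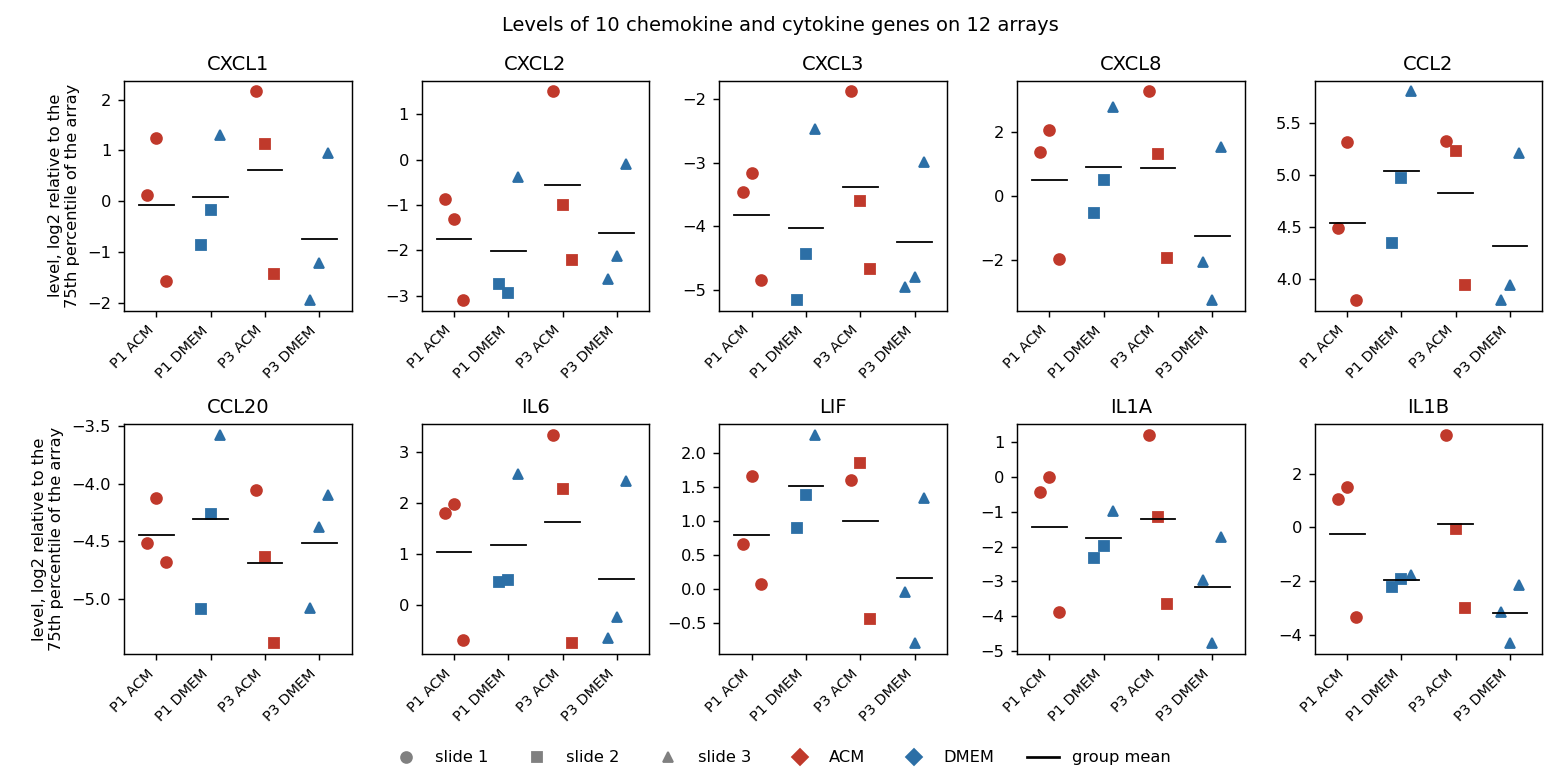
Levels (log2, relative to the 75th percentile of each array) of the 10 genes on 12 arrays, with 3 arrays a group drawn from left to right as replicates 1 to 3, ACM in red, DMEM in blue, the slide as the symbol and the group mean as a line. ACM and DMEM overlap for all 10 genes at both passages, and each panel has its own scale.

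The study called genes more than 2-fold changed with p of 0.05 or less. By these thresholds, applied to the unadjusted limma p, none of the 10 genes (0) was called at P1, against 13.6% of the 25270 genes tested, and none (0) at P3, against 1.73%. None (0) had ACM and DMEM arrays that did not overlap, against 36.1% of all genes at P1 and 9.78% at P3. After adjustment by Benjamini and Hochberg, limma called 0 genes of the whole array at P1 and 0 at P3, where 6064 and 1838 genes had an unadjusted p up to 0.05, with 0 of the 10 among them. The adjusted count at P1 was 4843 with only the 6 arrays compared and 5181 without P3 ACM replicate 1, again with 0 of the 10 genes in either. The median difference of the 10 genes was -0.13 at P1, against 0.15 over all genes tested, and 1.08 at P3, against 0.00. After quantile normalization these medians were -0.28 against 0.00 at P1 and 1.07 against -0.01 at P3. The size of the median at P3 depended on single arrays, being 0.40 without P3 ACM replicate 1, 0.64 without P3 DMEM replicate 1, 2.08 without P3 ACM replicate 3 and 1.93 without P3 DMEM replicate 3. The median at P3 stayed above 0 with each array left out. The median at P1 was above 0 without P1 ACM replicate 3 (0.71) or P1 DMEM replicate 3 (0.53). Under the labels of the table of the authors the medians were -1.52 at P1 and 0.20 at P3. At P3, 9 of the 10 differences were above 0, but the 10 genes went up and down together from array to array and their signs are not independent.

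**Figure D4:**
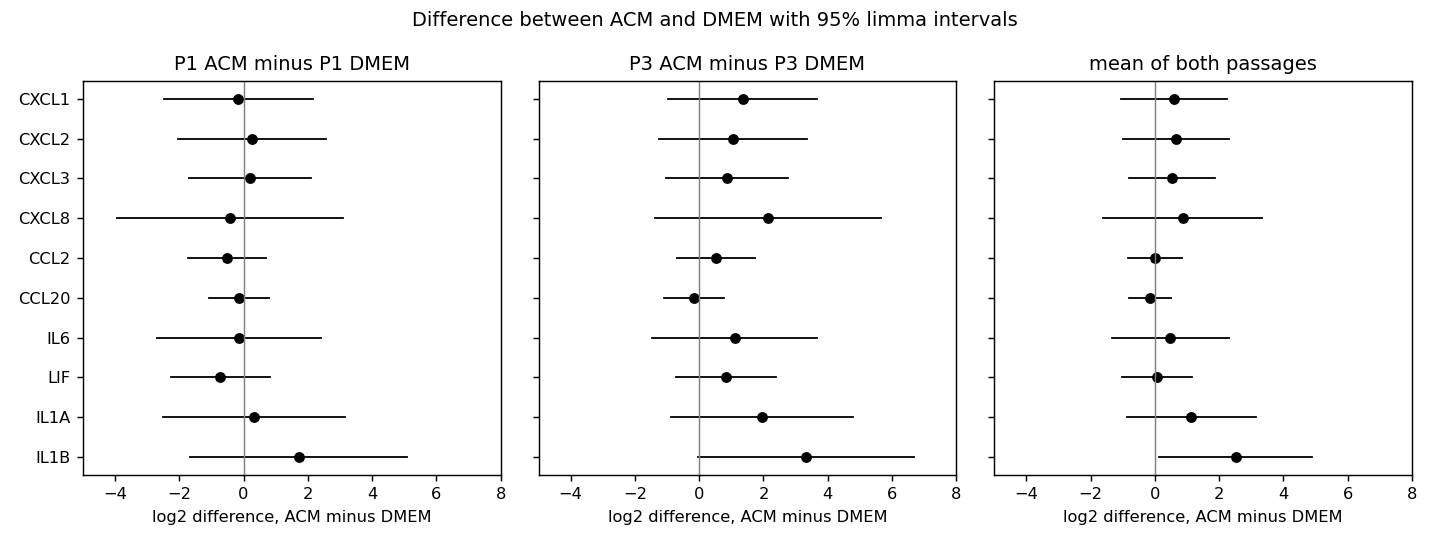
Difference between ACM and DMEM (log2 scale) of the 10 genes at P1, at P3 and as the mean of both passages, as points with 95% limma intervals. The intervals include 0 in all cases except IL1B in the mean of both passages, at 2.52 (0.14 to 4.90).

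The counts depended on single arrays. Without P3 ACM replicate 3, 5 genes were called at P3, all higher in ACM: IL1B (log2 difference 4.90), CXCL8 (3.55), IL1A (3.18), CXCL1 (2.38) and LIF (1.57), and the share called over all genes was then 4.95%. Without P3 DMEM replicate 3, CXCL8 was called (3.55, with 1.78% of all genes), and without P1 ACM replicate 3, IL1B was called at P1 (3.25, with 12.4% of all genes) and at P3 (1.72%). In each of these arrays all 10 genes were the lowest or the highest of their group. Leaving out P3 ACM replicate 1, the 1 P3 array on slide 1, lowered the differences instead and no gene (0) was called at P3. IL1B then differed by 1.67, CXCL8 by 0.95, IL1A by 0.75, CXCL1 by 0.58, LIF by 0.54, CCL2 by 0.27, IL6 by 0.25, CXCL3 by 0.11 and CXCL2 by 0.012, and CCL20 by -0.49.

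Over both passages, IL1B was the 1 gene of the 10 that passed the thresholds, where 3.97% of all genes did. The 6 ACM arrays had a mean level of -0.06 ± 2.67 (SD, n = 6) against -2.58 ± 0.98 (SD, n = 6) for the 6 DMEM arrays, and 4 of 6 ACM arrays lay above the highest DMEM array. The mean effect was 2.52 (standard error 1.08, limma adjusted p = 0.207), and the exact permutation test over the 400 arrangements within passages gave p = 0.065. The call was lost without any 1 of 9 of the 12 arrays, that is with every array left out except P1 ACM replicate 3, P3 ACM replicate 3 or P3 DMEM replicate 3. It was also lost with slide as a block, with slide as a random block, with the replicate block and under the labels of the table of the authors. With slide as a block the difference of IL1B was -3.18 at P1 and 1.97 at P3, and under the labels of the table it was -1.87 at P1 and -1.77 at P3. In the fit with slide as a block, P1 ACM is linked to the other slides only through P3 ACM replicate 1 on slide 1. P3 DMEM is linked to them only through P1 DMEM replicate 3 on slide 3. For the other genes the mean effect ranged from -0.15 for CCL20 to 1.14 for IL1A, within the spread between replicates.

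IL1B was also set against IL6, IL1A and CXCL8 within each array, slide by slide. IL1B minus IL6 had a median of -0.60 on slide 1 (4 ACM arrays, -2.66 to 0.12) and of -4.21 on slide 3 (4 DMEM arrays, -4.56 to -2.50). On slide 2, the slide with both media, it was -2.33 and -2.27 in P3 ACM replicates 2 and 3 and -2.66 and -2.42 in P1 DMEM replicates 1 and 2. The medians on slide 2 were -2.30 in ACM and -2.54 in DMEM, closer than those of slides 1 and 3, and the media on slide 2 also differed in passage. IL1B minus IL1A had medians of 1.51 on slide 1 (0.54 to 2.24), 0.87 and 0.08 in ACM and DMEM on slide 2, and -0.31 on slide 3 (-0.78 to 0.46). On slide 2 it was 0.64 to 1.09 in ACM and 0.05 to 0.11 in DMEM, so all ACM arrays lay above all DMEM arrays in it. IL1B minus CXCL8 had medians of -0.43 on slide 1 (-1.38 to 0.18), -1.23 and -2.06 in ACM and DMEM on slide 2, and -2.39 on slide 3 (-4.54 to -1.06), so that slides 1 and 3 overlapped in it. IL1A and IL1B both had their highest mean level on slide 1 (-0.78 and 0.67). Slide 2 (-2.28 and -1.80) and slide 3 (-2.61 and -2.84) followed. This was not particular to the interleukin-1 genes, as CXCL8 and LIF had the same order of slides. The mean was also highest on slide 1 for CCL2, CXCL1, CXCL2, CXCL3 and IL6. Only CCL20 had its highest mean on slide 3 (-4.28, against -4.34 on slide 1). This comparison was chosen after the values were seen and is a description with no test. Between slides 1 and 3 medium and slide cannot be told apart, and on slide 2 medium and passage cannot. On slide 2 alone, P3 ACM minus P1 DMEM was above 0 for CXCL2 (1.24), CXCL3 (0.66), IL1B (0.53), CXCL1 (0.37) and IL6 (0.29). It was below 0 for LIF (-0.44), CCL20 (-0.33), CXCL8 (-0.30), IL1A (-0.25) and CCL2 (-0.08).

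**Figure D5:**
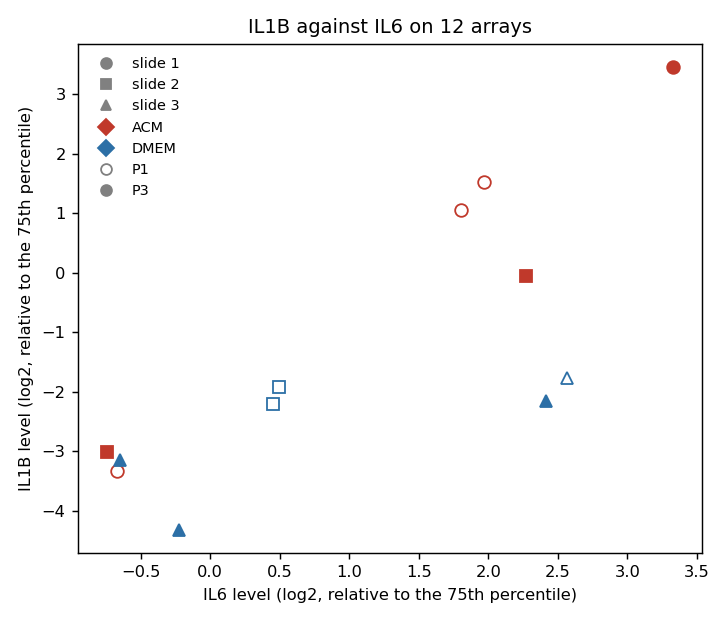
Level of IL1B against the level of IL6 (both log2, relative to the 75th percentile) on 12 arrays, ACM in red and DMEM in blue, open symbols for P1 and filled for P3, circles for slide 1, squares for slide 2 and triangles for slide 3. Where IL6 is high, ACM arrays have more IL1B than DMEM arrays, and where IL6 is low, P1 ACM replicate 3 and P3 DMEM replicate 1 lie side by side.

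Whether the effect of ACM differed between passages was tested in the same fit. None of the 10 genes (0) was called for this difference, against 6.86% of all genes. The difference of effects (P3 minus P1) ranged from -0.04 for CCL20 to 2.57 for CXCL8 (95% interval -2.40 to 7.54). With slide as a block CXCL1, CXCL2, CXCL3 and CXCL8 (4 genes) were called, where 2.83% of all genes were, and with slide as a random block none (0) was, at an estimated correlation of 0.36 within slides. The calls with slide as a block rest on P3 ACM replicate 1 and P1 DMEM replicate 3. These arrays were the highest of their group for 9 and 10 of the 10 genes. LIF was called without P3 ACM replicate 3 (with 4.99% of all genes) or without P3 DMEM replicate 3 (5.21%). As a level without ACM, P3 DMEM was compared with P1 DMEM, and none of the 10 genes (0) was called, against 1.72% of all genes. LIF came nearest, with -1.35 (95% interval -2.90 to 0.19, limma adjusted p = 0.571), and CXCL8 had -2.18 (-5.69 to 1.34). LIF was called without P3 ACM replicate 3 (with 2.18% of all genes), and LIF and CXCL8 were called without P3 DMEM replicate 3 (1.84%).

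The 10 genes rose and fell together over the 12 arrays. Over the 45 pairs the Pearson correlation ranged from 0.39 (CCL20 with IL1B) to 0.98 (CXCL1 with IL6), with a median of 0.82, and 36 pairs were over 0.7. Spearman's rho ranged from 0.47 (CXCL2 with LIF) to 0.99 (CCL2 with CXCL1). CXCL1 and IL6 had r = 0.977 and rho = 0.944 (permutation tests with 100000 resamples, p = 1e-05, the smallest they can give, and p = 3e-05, adjusted 0.000112 and 0.00045 over the 45 pairs). Without the 2 arrays farthest from the median of CXCL1, r was 0.969. CCL20 and IL1B had r = 0.39 and rho = 0.552 (permutation p = 0.21 and p = 0.0667, adjusted 0.21 and 0.0682), and 0.474 without the 2 farthest arrays. Of the 45 pairs, 42 had an adjusted p of 0.05 or less by Pearson and 43 by Spearman. The permutations shuffled all 12 arrays across groups and slides, which treats them as exchangeable. The share over pairs of other genes on the array is not given here, so these counts have no background to stand against. After the group means were taken off, the correlations were 0.60 to 0.98 (median 0.88), and after the slide means were taken off, 0.53 to 0.98 (median 0.88), so that the relation was seen within groups and within slides. The genes were chosen with results of these arrays known, and all points of a pair come from the same arrays.

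The 5 genes most like CCL2 over the 12 arrays, among 20093 genes, were PTX3, a secreted pattern recognition molecule (r = 0.958), BIRC3, an inhibitor of apoptosis induced by NF-kB (0.946), LIF (0.944), CXCL1 (0.938) and ZNF697 (0.936). So 2 of the 5 were of the same 10 genes. The closest genes of the other members were looked up after these were seen. CXCL8 was closest to EGFR (0.971) and BIRC3 (0.969), CXCL3 to CSF2 (0.974), which encodes GM-CSF, and LIF to CLDN1 (0.98). IL1A was closest to EGFR (0.972) as well. CXCL2 was closest to CXCL3 (0.94) and NFKBIA (0.933), the inhibitor that NF-kB induces, and IL1B to NRIP3 (0.971) and TFPI2 (0.969). These correlations are descriptions over 12 arrays that share slides and groups.

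The other genes of the pathway were taken from lists, whose counts stand against 13.6% of all genes called at P1 and 1.73% at P3. Of 22 measured transcription factors and inhibitors of the NF-kB, AP-1 and C/EBP families, none (0) was called at P1 or at P3. NFKBIA ranged from 1.60 to 3.31 and TNFAIP3, a further inhibitor of NF-kB, from -0.66 to 2.40, with differences of -0.17 and -0.60 at P1 and 0.24 and 0.48 at P3. Of 8 factors that act on the decay of such mRNAs none (0) was called, and of 9 genes of gp130 signalling, STAT3 and SOCS3 included, none (0) was called. Of 14 genes of interleukin-1 processing and signalling 1 was called at P1, NLRC4, and none (0) at P3. NLRC4, an inflammasome sensor, was well above background on 1 of 3 P1 DMEM arrays. Its log2 difference at P1 was 1.74, and 0.95 after quantile normalization. CASP1, which cleaves the IL-1 beta precursor, differed by -0.19 and 0.09. Of 20 genes that are induced with the cytokines in inflammation, MMP10 was called higher at P1 (1.18) and none (0) at P3. Of the others, PTGS2, the inducible cyclooxygenase, ranged from -4.85 to -0.67 and PTX3 from 0.58 to 3.33.

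More calls were made at P1 among genes with low signal. The counts of each list at P1 stand against the 13.6% called over all genes. A probe was kept if well above background on all 3 arrays of 1 group, so a gene could be kept through P1 ACM alone. P1 ACM was wholly on slide 1, with 90.9% to 94.6% of probes well above background. P1 DMEM replicates 1 and 2 were on slide 2, with 74.2% to 80.2%. Higher calls at P1 among dim genes therefore cannot be told apart from this filter and the slides. Of 27 other chemokines kept, 7 were called higher in ACM at P1 and none (0) at P3, with a median difference of 0.56 at P1 against 0.15 over all genes, and 0.04 against 0.00 after quantile normalization. By the rule for named genes these were CCL13 (2.25), CXCL17 (1.95) and CXCL6. CCL13 was well above background on 2 of 3 P1 DMEM arrays and CXCL17 on 1 of 3, so their differences rest in part on probes at background. CXCL6, a ligand of CXCR2, had 0 of 3 P1 DMEM arrays well above background and was at least 1.13-fold higher in ACM, a lower bound that sets each DMEM array to its lowest signal called above background, or to the probe where that was higher. Of 25 other cytokines kept, IL33, IL36G, IL36RN and OSM (4 genes) were called higher at P1 and 1 at P3. Among them IL33, an alarmin of the interleukin-1 family, had a level of -2.36 ± 0.04 (SD, n = 3) after P1 ACM against -3.93 ± 0.20 (SD, n = 3) after P1 DMEM, a difference of 1.58 (limma adjusted p = 0.103) with no overlap, and 1.26 after quantile normalization. IL36G differed by 1.35 and IL36RN was at least 1.35-fold higher, being above background on 0 of 3 P1 DMEM arrays. After quantile normalization IL36G differed by 0.88 and IL36RN by 0.47, both less than 2-fold. At P3 the called gene was IL1RN, the interleukin-1 receptor antagonist, at 1.27. The called genes MMP10, OSM and IL1RN fell outside the rule for named genes and were named after their values were seen. Of 17 receptors kept, CXCR2 (1.56), CCR2 (at least 1.19-fold) and IL1R2 (3 genes) were called higher at P1, against the same 13.6%. CXCR2 was above background on 1 of 3 P1 DMEM arrays and differed by 0.59 after quantile normalization. CCR2 was above background on 0 of 3 P1 DMEM arrays and differed by 0.76 after quantile normalization. IL1R2, a decoy receptor, was at background on all P1 DMEM arrays, gave no bound above 1 and turned to -0.15 after quantile normalization. CCR6, the CCL20 receptor, ranged from 0.99 to 2.29 with differences of -0.01 and -0.04, and IL6ST, which encodes gp130, from 1.32 to 2.19 with -0.41 and -0.26. Over all genes 3410 were called higher and 25 lower at P1, against 905 and 230 after quantile normalization and 155 and 376 with slide as a block.

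Markers of other cell types were examined beside the interleukin-1 genes. Of 8 astrocyte markers kept, S100B (at least 2.21-fold) and ALDH1L1 (1.65) were called higher and AQP4 lower (-1.37, with overlapping arrays) at P1, and AQP4 lower at P3 (-1.94), whereas GFAP was well above background on 7 of 12 arrays and was not kept for the tests. The summed level of the astrocyte list lay between 2.59 and 2.91 in ACM and between 2.78 and 2.94 in DMEM at P1, and between 2.34 and 2.91 and between 2.39 and 2.76 at P3, overlapping at both passages. This astrocyte sum was mostly GJA1 (1.23 to 2.20) and GLUL (0.08 to 0.92). S100B, GFAP and ALDH1L1 reached only -4.56, -5.69 and -2.60, so the sum says little about them. Of 9 microglia and leukocyte markers, CX3CR1 (2.16, above background on 1 of 3 P1 DMEM arrays) and P2RY12 were called higher at P1 and CD68 (1.22) at P3. P2RY12 was above background on 0 of 3 P1 DMEM arrays, at least 1.27-fold higher in ACM by the same bound, and turned to -0.16 after quantile normalization. Their summed level was 4.14 to 4.66 in P1 ACM and 3.71 to 4.21 in P1 DMEM, and 3.92 to 4.51 in P3 ACM against 3.41 to 3.69 in P3 DMEM, so it was higher in all P3 ACM than in all P3 DMEM arrays. This sum was mostly 1 gene, ITGAM, at 3.20 to 4.51, and the next highest of the other 8 markers, CD68, reached -0.55. The paper reports that Daoy cells were checked for contamination with other cells and that conditioned media were filtered before use. The cultures were of Daoy alone, and the levels are given as those of marker genes in these cultures. Whether material of other cells added to them was not tested. The part of these markers in the levels of the interleukin-1 genes was not tested.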

How the data were processed

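Cy3-labelled RNA of 12 Daoy cultures was hybridised to 12 arrays of 1 colour. The authors deposited the scanner output, in which each spot has an intensity corrected for background by Agilent Feature Extraction 11.0.1.1 (per the processing notes of the submitters) and not normalized between arrays. A second file that the authors deposited holds log2 values of 30569 probes, and its column labels conflict with the scanner output. How the arrays were normalized is not given in the sources used here. The paper gives thresholds of 2-fold and p of 0.05 and names Student's t-test.

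Here, 1377 control spots and outlier spots were left out and spots of a probe averaged. From the log2 intensity, the 75th percentile of the array was subtracted. A probe was kept (31073 of 34127) if at least 1 group had it well above background on all 3 arrays. RefSeq accessions gave a symbol to 25771 probes (75.5%), and the brightest probe stood for a gene. The groups were compared with limma 3.58.1 in R 4.3.3, two-sided, in 1 fit of 12 arrays and 4 group means with 8 residual degrees of freedom and Benjamini-Hochberg adjustment over the kept probes, a procedure tested on simulated data. Exact permutation tests and correlations used scipy 1.17.1. All arrays were scanned on 1 day, and 3 arrays per group limit the precision. The labels do not say what the 3 experiments shared, so p-values measure the spread between these samples.

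The 10 genes and all gene lists were chosen with earlier results of these data known. The rule for named genes was all 10 genes, the 3 largest calls without overlap of each list, passage and direction, and the 5 genes most like the brightest member, CCL2. The deviations of same-numbered samples correlated across probes by 0.43, 0.19 and 0.27 at P1, which was taken as pairing, and by 0.23, -0.19 and 0.06 at P3. The main fit and the exact tests used no pairing, and the replicate block is given as an alternative. Of the 10 genes, 3, 2 and 0 deviated with the same sign in ACM and DMEM replicates 1, 2 and 3 at P1, and 2, 4 and 0 at P3. The alternatives were another normalization (quantile, alone or after normexp with an offset of 50), the deposited table, other filters on dim probes, a fit of only 2 groups, eBayes with trend and robust, the t-test of the methods, the replicate block, slide as a fixed or random block, slide with quantile normalization, averaged probes, and leaving out each array.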

Additional observations from a re-analysis of the deposited data

How the results depend on the processing

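Of 500 values of the 10 differences at P1 and P3 under the alternatives, 45 changed sign, 35 at P1 and 10 at P3, and the cause was not tested unless the alternative shows it. Under the labels of the table of the authors, 1 gene was called at P1 (CXCL2), 1 for the difference between passages and 0 for the mean of both, with differences at P1 of -2.08 (CXCL2), -1.37 (CXCL3), -1.68 (IL1A) and -1.87 (IL1B) and at P3 of 0.74 (CCL20), -0.56 (CXCL8), -0.90 (IL1A), -1.77 (IL1B) and -0.020 (LIF). The shares of all genes called there were 1.57%, 1.91% and 2.35%, respectively. With slide as a block, 4 genes were called for the difference between passages and 0 for the mean, with -2.02 (CXCL2), -1.28 (CXCL3), -2.90 (IL1A) and -3.18 (IL1B) at P1 and 0.61 (CCL20) at P3. After quantile normalization as well, these were 3 genes and 0 genes, with -2.30, -1.55, -3.06 and -3.38 at P1 and 0.51 at P3. Both fits with slide as a fixed block rest on P3 ACM replicate 1 and P1 DMEM replicate 3, as stated above. With slide as a random block, 1 gene was called in DMEM between passages and 0 for the mean, with -0.84, -0.60, -0.97 and -0.085 for the same 4 genes at P1 and 0.22 for CCL20 at P3. Of all genes, slide as a block called 2.83% for the difference between passages and 1.82% for the mean. After quantile normalization as well these shares were 2.5% and 1.66%. The random block called 1.37% of all genes in DMEM between passages and 1.1% for the mean. Quantile normalization gave -0.39 for CXCL3 at P1, normexp with it -0.20 for CXCL3 and -0.014 for CXCL2, and averaging the probes of a gene 0.063 for CXCL1. On probes well above background on all 12 arrays 1 gene was called at P3 (with 1.2% of all genes), as with trend and robust (1, with 1.68%). In both cases it was IL1B. On the arrays compared alone 2 genes were called in DMEM between passages (with 2.43%).

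With the replicate block, which pairs arrays of the same number within a passage, 0 genes were called for the mean of both passages, so that IL1B lost its call, with its differences of 1.71 at P1 and 3.33 at P3 as without the block. The block changed no other call. It could not be estimated for DMEM between passages, and the methods' t-test and the arrays compared alone did not apply to the difference between passages and the mean. After adjustment the methods' t-test called 2093 genes of the whole array at P1, with 0 of the 10 among them.

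Leaving out 1 array at a time, where a lone pair of arrays is assumed to vary like the other groups, gave 0 to 1 genes called at P1, 0 to 5 at P3, 0 to 1 for the difference between passages, 0 to 1 for the mean of both and 0 to 2 in DMEM between passages. The differences at P1 ranged from -0.52 to 0.23 for CCL20, from -0.81 to 0.60 for CXCL1, from -0.19 to 1.09 for CXCL2, from -0.37 to 0.97 for CXCL3, from -1.21 to 0.80 for CXCL8, from -0.61 to 0.72 for IL6 and from -0.40 to 1.54 for IL1A, and that of CCL20 at P3 from -0.49 to 0.17. The other differences kept their sign under each array left out. All 13 probes lay above background on every array, and those of CCL20 and CXCL3 and the second probe of LIF lay as little as 0.44, 0.37 and 0.47 above the lowest signal called.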
